A study of Homo sapiens with 12 samples.

Results

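The ATF4 and amino acid stress genes described here are ATF4 itself, the transcription factors, enzymes and transporters that it is known to induce, and the eIF2alpha kinases and phosphatase subunit of the same pathway. Their members were chosen by gene name from a fixed list of 36, and all 36 had a row among the 58735 genes of the count table. This list and the further lists below were chosen with earlier results of these data known. Their shares of calls beside those of all genes are therefore a description. RNA was sequenced from HK-2 cells, an established, immortalized line of human proximal tubular epithelium, in 12 samples and 4 groups of 3. The control group received water. The other groups were kept for 48 h with an iodinated contrast medium (iohexol at 75 mg I/mL), with a platinum drug that damages DNA (cisplatin at 5 μM) or with a glycopeptide antibiotic (vancomycin at 4 mM). All groups share 1 cell line in DMEM/F12 with serum. The drug groups share 1 time point, and each drug has a single dose. The labels do not say whether the 3 samples of a group were separate cultures, so the p-values measure the spread between these samples, which may be technical.

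Eukaryotic cells respond to a shortage of amino acids, to misfolded protein in the endoplasmic reticulum, to viral RNA and to mitochondrial or heme stress by phosphorylating the translation factor eIF2alpha, a reaction known as the integrated stress response. General translation then slows while ATF4 mRNA is translated more, and ATF4 protein, mostly paired with C/EBP factors, binds composite sites in the genes for amino acid synthesis, amino acid uptake and stress signalling. Because ATF4 is controlled largely at translation, the amount of its mRNA and that of its protein can part, and only mRNA was measured here. In the proximal tubule these genes are known to respond to toxicants, ischemia and nutrient stress.

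The composite element that C/EBP and ATF4 pairs bind is written here by its best known core, TGATGNAAN, and was searched on both strands of the RefSeq promoter sequences (GRCh38.p14, 250 bases before to 50 after each start). Of the 36 members 29 had an entry, and 5 of these (17.2%) held the core, against 1268 of 35116 promoters (3.61%). A match is a description of the letters, and its absence from the other members says only that these letters are not in that window. The windows of the 3 members whose match lies before the start are shown because they carry letters that ATF4 pairs are known to bind, with the core in capitals and 20 bases on each side, in the direction of the gene.
CHAC1, chr15:40953241-40953289, plus strand: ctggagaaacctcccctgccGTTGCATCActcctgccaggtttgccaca
ASNS, chr7:97872448-97872496, minus strand: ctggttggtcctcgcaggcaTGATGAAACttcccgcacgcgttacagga
FGF21, chr19:48755449-48755497, plus strand: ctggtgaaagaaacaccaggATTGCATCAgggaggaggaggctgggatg
The ASNS core reads along the gene, 68 to 60 bases before the start. Those of CHAC1, 210 to 202 bases before the start, and of FGF21, 55 to 47 bases before it, are its reverse complement, TGATGCAAC and TGATGCAAT on the other strand. These are the RefSeq starts. The annotation of the count table begins CHAC1 further upstream, at position 40952962, and ASNS at position 97872542, so that both matches lie inside the gene there, and the FGF21 match lies before its start at 48755559. The matches of SLC7A1 (TGATGAAAC) and SLC3A2 (TGATGTAAG on the other strand) lie after the start.

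Total counts per sample ran from 14057282 to 18177109, and no 2 replicates of a group agreed within sampling noise. The tubular keratins KRT8, KRT18 and KRT19, vimentin, CDH6, GGT1 and PAX8 were expressed in every sample, whereas LRP2, SLC22A6, SLC22A8 and HNF4A, which define the mature proximal tubule, had 0 to 3 counts per sample. Of the 7 markers of other cell types, PTPRC, CDH5, UMOD, NPHS1 and AQP2 stayed under 1 CPM, PECAM1 reached 4.01 CPM, and COL1A1 lay between 21.8 and 50.4 CPM. CPM values are counts per 1000000, with the total count times the TMM factor as the library size. In bulk RNA, fewer cells that express a gene and less RNA of it per cell cannot be told apart.

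Some libraries stood apart within their groups. Iohexol replicate 3 had the lowest CPM of its group for 26 of the 35 members tested (74.3%), with a median deviation of -0.23 (log2), while it was lowest for 40.7% and highest for 40.1% of 17073 genes. Control replicate 1 was lowest for 20 of the 35 (57.1%), with a median deviation of -0.12, against 40.6% of all genes. Cisplatin replicate 1 was lowest for 19 of the 35 (54.3%), with a median deviation of -0.05, against 34.8% of all genes. Over the 35 members the deviations of iohexol replicate 3 and control replicate 1 correlated with Pearson's r = 0.74, a description across genes that share the libraries. Calls with iohexol that were lost or gained without 1 library are given with that value or with the number of such fits.

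**Figure D1:**
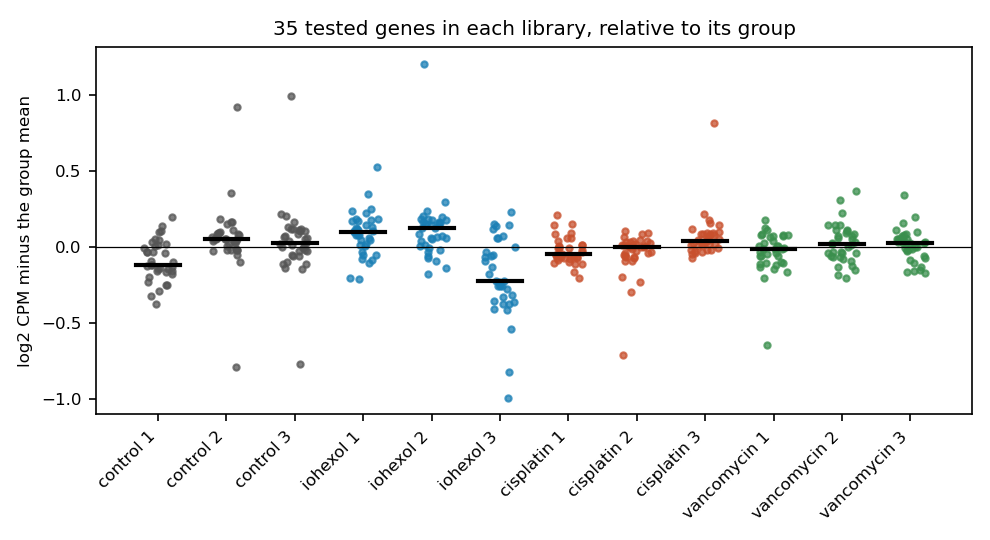
Deviation of each of the 35 tested genes from its group mean (vertical axis, log2 CPM) in the 12 libraries (horizontal axis), with a line at the median. The points of iohexol 3 centre at -0.23 and those of control 1 at -0.12, and the medians of the other libraries lie between -0.05 and 0.12.

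The first question was how each drug changed these genes relative to the control group. With iohexol, 10 of the 35 tested members were higher and 1 was lower at an adjusted p under 0.05 (edgeR's quasi-likelihood test, Benjamini-Hochberg adjustment over all genes), where 11.2% and 9.77% of all 15657 genes tested were called. With cisplatin, 10 were higher and 19 lower, against 29.2% and 30.6% of 15876 genes. With vancomycin, 10 were higher and 9 lower, against 29.0% and 28.8% of 15819 genes. The median log2 fold change of the members was 0.14 with iohexol, -0.29 with cisplatin and 0.00 with vancomycin, and that of all genes was 0.01, 0.01 and -0.01. FGF21, a secreted metabolic hormone, had 0 or 1 count in every sample and was not tested. A count of 0 allows a level of up to 3 counts, which was 0.165 to 0.213 per 1000000 counts in these libraries and covers the counting error alone.

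DEGs were called genes with a log2 fold change above 1 or below -1. Iohexol gave 5 DEGs among the members, all higher (DDIT3, CHAC1, ASNS, CTH and NUPR1), against 4.02% higher and 1.25% lower of all genes. Cisplatin gave 2 higher (ATF5 and PPP1R15A) and 8 lower (DDIT4, PSPH, ALDH1L2, GPT2, CBS, SLC1A4, NUPR1 and VLDLR), against 7.62% and 8.72%. Vancomycin gave 4 higher (DDIT3, CEBPB, NUPR1 and PPP1R15A) and 1 lower (PSAT1), against 10.8% and 7.65%. In all, 16 members were a DEG with at least 1 drug, 13 of them with 1 drug, and NUPR1 with all 3. Of the 6 members called with all 3 drugs, DDIT3, SLC3A2 and CEBPB were higher with each, whereas PSAT1, PSPH and NUPR1 changed sign between drugs. The shares of all genes that were DEGs with at least 1 drug or called with all 3 were not computed. These pooled counts therefore describe the members alone and cannot be read as many or few.

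These comparisons depend on the scaling for cisplatin. The median of all genes moved by 0.218 (log2) with cisplatin when library size alone replaced TMM, and by 0.071 and -0.076 with iohexol and vancomycin. With library size alone, the cisplatin calls were 14 higher and 15 lower in place of 10 and 19, and 3 of the 8 lower DEGs (DDIT4, ALDH1L2 and VLDLR) stayed below -1. Without iohexol replicate 3, 16 members were higher with iohexol and 3 lower, and the calls over all genes rose too, to 14.8% higher and 13.5% lower. Leaving out one of the other libraries of that comparison gave 4 higher without iohexol replicate 1, 5 without iohexol replicate 2 or control replicate 1, 6 without control replicate 3 and 7 without control replicate 2, where 6.34% to 8.53% of all genes were higher. DDIT3, CHAC1, CTH, PSPH and ALDH18A1 were called in all 6 of these fits.

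**Figure D2:**
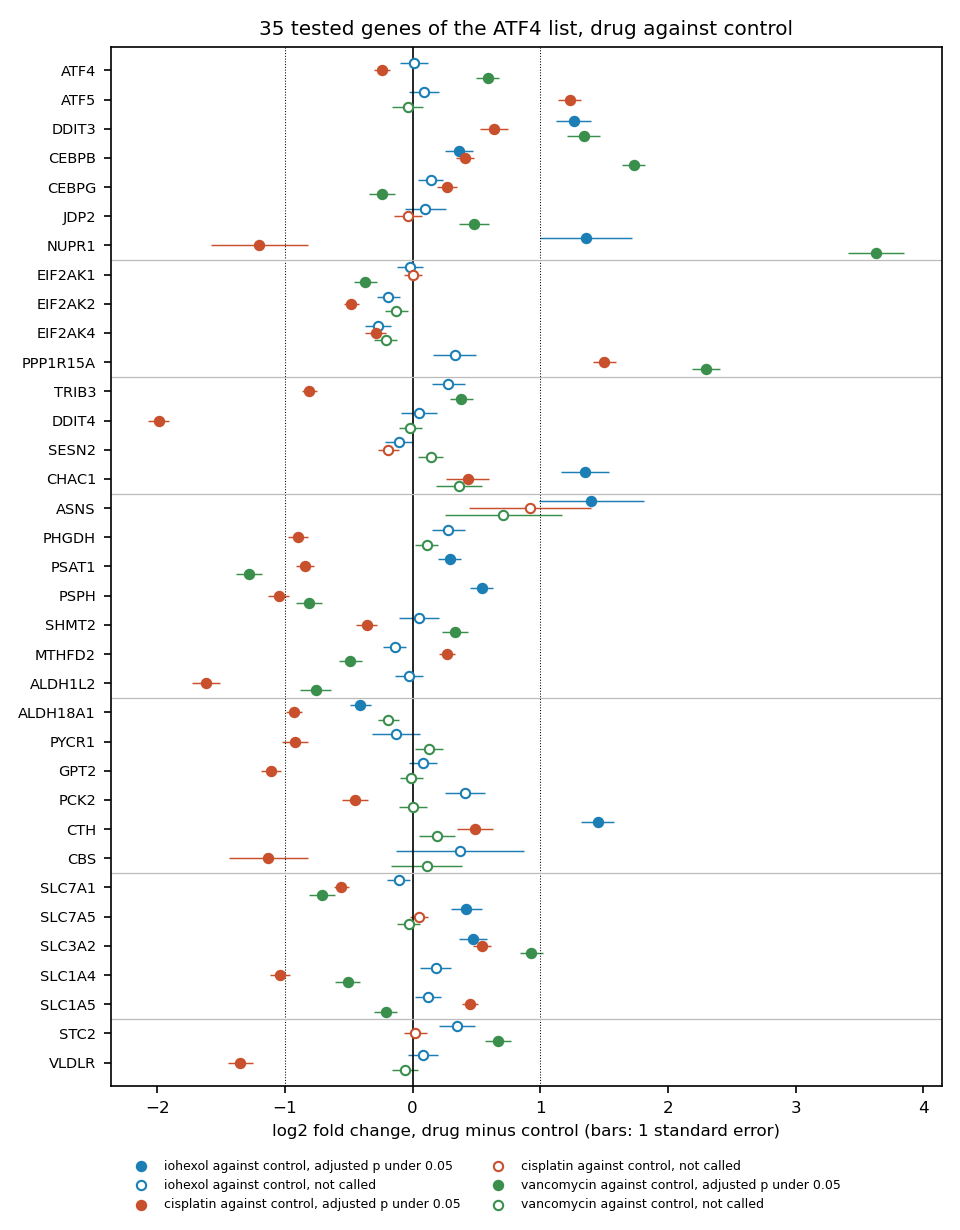
Log2 fold change against control (horizontal axis, bars are 1 standard error) of the 35 tested genes (vertical axis) with iohexol, cisplatin and vancomycin, grouped by role with grey lines between groups and dotted lines at -1 and 1. Filled points were called, and they number 11 with iohexol, 29 with cisplatin and 19 with vancomycin.

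Of the 7 transcription factors, 3 were higher with iohexol, 4 were higher and 2 lower with cisplatin, and 5 were higher and 1 lower with vancomycin. The shares of all genes were 11.2% higher with iohexol, 29.2% higher and 30.6% lower with cisplatin, and 29.0% and 28.8% with vancomycin, so that 2 of 7 lower with cisplatin was near the background. ATF4 (chr22:39519695-39522685) had 274, 319 and 316 CPM in the control samples, 335, 316 and 251 with iohexol, 247, 262 and 260.1 with cisplatin and 415, 515 and 475 with vancomycin. The vancomycin samples were above all others, and the cisplatin samples were below the controls. With vancomycin ATF4 rose 1.5-fold (log2 0.59 ± 0.09 SE, adjusted p = 8.32e-06), and with iohexol it was at 0.01 ± 0.11 (adjusted p = 0.964). Its value with cisplatin was -0.24 ± 0.06 (adjusted p = 0.00336), a call that was lost with library size alone (-0.02, adjusted p = 0.758). Of the 31-base sequences of ATF4, 43.6% also occur in other genes, mainly the pseudogene ATF4P4, which had 0 to 3 counts.

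DDIT3 (chr12:57516588-57521737) encodes CHOP, the stress factor that takes part in apoptosis. It had 12.3, 12.4 and 13.1 CPM in the controls, 31.5, 32.9 and 24.6 with iohexol, 18.5, 18.3 and 22.1 with cisplatin and 30.0, 38 and 30.2 with vancomycin. Every treated sample was above every control. The rise was 2.39-fold with iohexol (log2 1.26 ± 0.14, adjusted p = 6.9e-05), 1.56-fold with cisplatin (0.64 ± 0.11, adjusted p = 0.00012) and 2.52-fold with vancomycin (1.34 ± 0.13, adjusted p = 2.79e-09). MARS lies on the opposite strand over 27.2% of the exon bases of DDIT3, had 2241 to 3194 counts, and was at 0.02, -0.52 and -0.34 (log2) with the 3 drugs. The strand setting of the counting is not given in the sources used here.

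CEBPB (chr20:50190734-50192689), a partner of ATF4 and a regulator of acute phase and inflammatory genes, had 103, 113 and 102 CPM in the controls, 144, 148 and 112 with iohexol, 135, 144 and 145 with cisplatin and 368, 399 and 321 with vancomycin. The vancomycin samples were far above the rest, and iohexol replicate 3 lay within the control range. With vancomycin CEBPB rose 3.31-fold (log2 1.73 ± 0.09, adjusted p = 1.92e-13) and with cisplatin 1.33-fold (0.41 ± 0.07, adjusted p = 3.8e-05). The call with iohexol (0.36 ± 0.11, adjusted p = 0.0421) was lost in 5 of the 6 fits without 1 library, with an adjusted p of up to 0.173.

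NUPR1 (chr16:28532708-28539174), a small chromatin protein induced by stress, was the least abundant factor, with 8 to 317 counts per sample. It had 1.02, 1.63 and 1.25 CPM in the controls, 4.42, 3.77 and 1.74 with iohexol, 0.485, 0.554 and 0.65 with cisplatin and 14.4, 21.4 and 14.8 with vancomycin. The groups did not overlap. It rose 12.4-fold with vancomycin (log2 3.63 ± 0.22, adjusted p = 1.4e-12) and 2.56-fold with iohexol (1.36 ± 0.36, adjusted p = 0.0208). It fell to 0.434 of the control with cisplatin (-1.20 ± 0.38, adjusted p = 0.0121). The iohexol call was lost in 4 of the 6 fits without 1 library (adjusted p up to 0.0924), and the cisplatin call was lost without control replicate 2.

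ATF5 (chr19:49928702-49933935), a relative of ATF4 that takes part in the mitochondrial unfolded protein response, had 17.8, 19.1 and 21.8 CPM in the controls, 20.6, 21.3 and 19.6 with iohexol, 45.2, 45.9 and 46.7 with cisplatin and 18.8, 20.8 and 19.3 with vancomycin. Only the cisplatin samples stood above the rest, 2.35-fold above control (log2 1.23 ± 0.09, adjusted p = 3.93e-09). Its log2 fold changes with iohexol and vancomycin were 0.09 ± 0.12 and -0.04 ± 0.12. NUP62 covers 21.2% of its exon bases on the opposite strand and was at -0.16 with cisplatin. CEBPG, another partner of ATF4, rose with cisplatin (0.27 ± 0.08) and fell with vancomycin (-0.24 ± 0.10, adjusted p = 0.0488). The vancomycin call of CEBPG was lost in 5 of the 6 fits without 1 library. JDP2, a repressor of the AP-1 family, rose with vancomycin (0.48 ± 0.12).

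**Figure D3:**
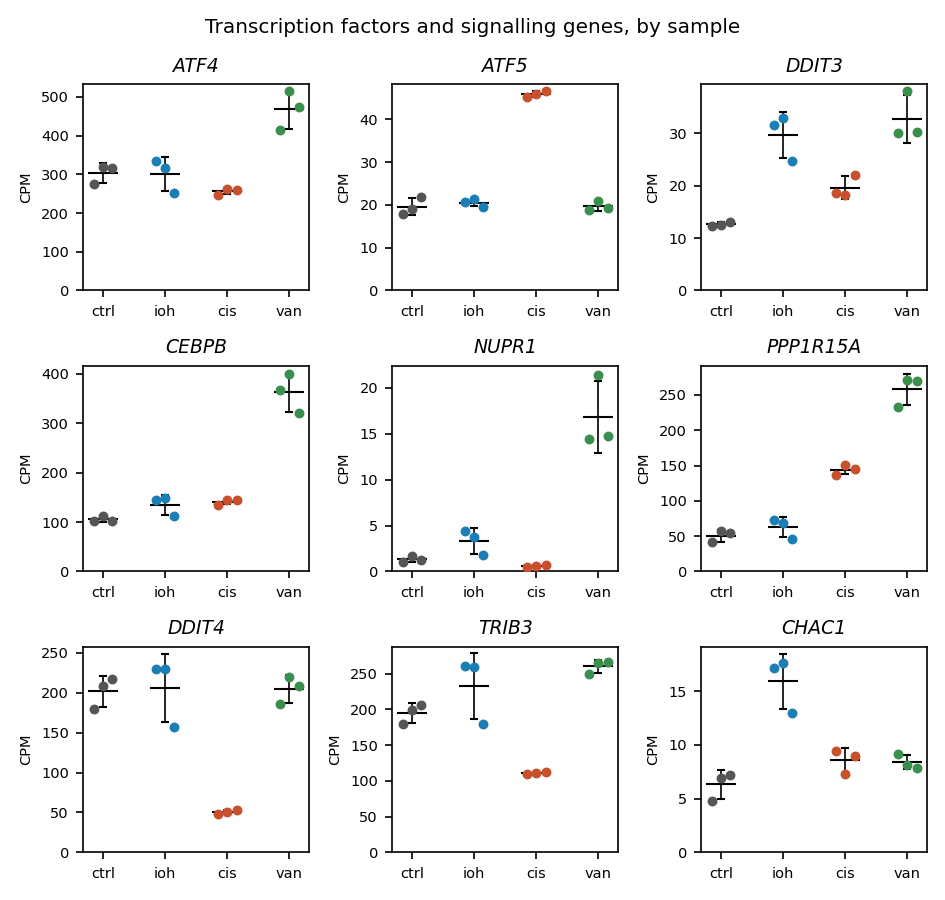
CPM (vertical axis, from 0) of 9 transcription factors and signalling genes in the 3 samples of the control (ctrl), iohexol (ioh), cisplatin (cis) and vancomycin (van) groups, with the mean as a line and the SD as a bar. ATF5 stands at 45.2 to 46.7 CPM with cisplatin alone, DDIT4 falls to 48.3 to 53.4 CPM there, and NUPR1 and CEBPB are highest with vancomycin.

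The eIF2alpha kinases act through their protein activity, which mRNA does not measure. Of the 3 kinases among the members, 1 was lower with vancomycin and 2 with cisplatin, and no call was higher. Over all genes 28.8% were lower with vancomycin and 30.6% with cisplatin, so that 1 of 3 with vancomycin was near the background. The shares of all genes called higher were 29.0% and 29.2%. EIF2AK1 (HRI, the heme and mitochondrial stress kinase) fell with vancomycin (log2 -0.37 ± 0.09, adjusted p = 0.000964) and was at -0.00 ± 0.07 with cisplatin, where library size alone gave 0.22 (adjusted p = 0.00953). EIF2AK2 (PKR, the kinase of double-stranded RNA) fell with cisplatin (-0.48 ± 0.06), as did EIF2AK4 (GCN2, the sensor of uncharged tRNA; -0.29 ± 0.08), whose call was lost with library size alone (-0.07, adjusted p = 0.419). Without iohexol replicate 3, EIF2AK2 and EIF2AK4 were also lower with iohexol, at -0.26 and -0.33. With vancomycin EIF2AK4 was at -0.21 ± 0.09 (adjusted p = 0.0644) and was not called. It was called lower there with library size alone (-0.28, adjusted p = 0.0125) and with replicate number as a block (-0.21, adjusted p = 0.0259).

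PPP1R15A (chr19:48872392-48876057) encodes GADD34, the subunit that directs the phosphatase back to eIF2alpha and so ends the response. It had 41, 57 and 54.2 CPM in the controls, 73.2, 68.9 and 46.2 with iohexol, 137, 150.4 and 145 with cisplatin and 233, 271 and 270.2 with vancomycin. The group means lay in that order, and of neighbours in it only control and iohexol overlapped. The rise was 2.84-fold with cisplatin (log2 1.50 ± 0.09, adjusted p = 2.8e-10) and 4.93-fold with vancomycin (2.30 ± 0.11, adjusted p = 1.95e-14). With iohexol the value was 0.33 ± 0.17 (adjusted p = 0.202), and 0.51 (adjusted p = 0.00195) without iohexol replicate 3.

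The 4 inhibitors and signalling targets moved apart with cisplatin. DDIT4 (chr10:72273920-72276036) encodes REDD1, an inhibitor of mTORC1. Its CPM was 179.6, 208 and 217 in the controls, 230.0, 230.1 and 157 with iohexol, 48.3, 50.8 and 53.4 with cisplatin and 186, 220.2 and 208 with vancomycin. The cisplatin samples were at 0.252 of the control level (log2 -1.99 ± 0.08, adjusted p = 6.71e-13), the lowest log2 fold change of any member with any drug. With iohexol and vancomycin its log2 fold changes were 0.05 ± 0.14 and -0.02 ± 0.09.

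CHAC1 (chr15:40952962-40956519), which degrades glutathione and carries the core shown above, had 4.79, 6.96 and 7.24 CPM in the controls, 17.2, 17.6 and 13 with iohexol, 9.45, 7.26 and 8.98 with cisplatin and 9.14, 8.17 and 7.88 with vancomycin. The iohexol samples were above all others. The rise with iohexol was 2.55-fold (log2 1.35 ± 0.19, adjusted p = 0.000348). The cisplatin value of 0.43 ± 0.17 (adjusted p = 0.0377) lost its call in 3 of the 6 fits without 1 library, and the vancomycin value was 0.36 ± 0.18 (adjusted p = 0.0922). TRIB3, a pseudokinase that inhibits AKT and ATF4 itself, fell with cisplatin (-0.81 ± 0.06, adjusted p = 7.54e-09) and rose with vancomycin (0.38 ± 0.09, adjusted p = 0.000615). With iohexol TRIB3 was at 0.28 ± 0.13 (adjusted p = 0.161), and at 0.44 (adjusted p = 0.000387) without iohexol replicate 3. SESN2, a leucine sensor that restrains mTORC1, was called with none of the drugs (-0.11, -0.19 and 0.14).

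Of the 7 enzymes of asparagine, serine and one-carbon metabolism, 3 rose with iohexol, 1 rose and 5 fell with cisplatin, and 1 rose and 4 fell with vancomycin. Over all genes 11.2% rose with iohexol, 29.2% rose and 30.6% fell with cisplatin, and 29.0% rose and 28.8% fell with vancomycin. PHGDH, PSAT1 and PSPH are the successive enzymes that make serine from 3-phosphoglycerate. PSAT1 (chr9:78297143-78330093) had 86.7, 87.5 and 84.9 CPM in the controls, 109.9, 103 and 99.9 with iohexol, 48.2, 49 and 48 with cisplatin and 38.5, 38.9 and 32.6 with vancomycin. The 4 groups did not overlap. It fell with vancomycin to 0.412 of the control (log2 -1.28 ± 0.10, adjusted p = 1.32e-10) and with cisplatin to 0.56 (-0.84 ± 0.07, adjusted p = 9.9e-09). The iohexol call, 0.29 ± 0.09 (adjusted p = 0.0337), was lost in 5 of the 6 fits without 1 library (adjusted p up to 0.153).

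PSPH (chr7:56011051-56051604), the last enzyme of the 3, followed the same order of signs. Its CPM was 49.6, 49.1 and 50.6 in the controls, 74.5, 73.5 and 66.9 with iohexol, 25.6, 22.9 and 23.7 with cisplatin and 30.5, 28.4 and 28.6 with vancomycin, again without overlap. It rose 1.46-fold with iohexol (log2 0.54 ± 0.09, adjusted p = 0.00159) and fell with cisplatin (-1.05 ± 0.08, adjusted p = 8.08e-09) and vancomycin (-0.81 ± 0.10, adjusted p = 3.74e-07). PHGDH, the first enzyme, fell with cisplatin (-0.90 ± 0.08, adjusted p = 4.51e-08). With vancomycin it was at 0.11 ± 0.09 (adjusted p = 0.289), so that serine synthesis enzymes were not all lower there. With iohexol PHGDH was at 0.28 ± 0.13 (adjusted p = 0.152), and at 0.42 (adjusted p = 0.0011) without iohexol replicate 3. Of the 31-base sequences of PSAT1 and PSPH, 13.7% and 15.7% occur in other genes, mainly the pseudogenes PSAT1P3 and PSPHP1, which had 0 counts in every sample.

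The mitochondrial folate enzymes differed from each other. ALDH1L2 (chr12:105019784-105084577), which oxidizes formyl-tetrahydrofolate, had 25.8, 25 and 24.8 CPM in the controls, 23.1, 24.5 and 25.6 with iohexol, 7.69, 7.76 and 9.1 with cisplatin and 16.1, 13.7 and 16.1 with vancomycin. It fell to 0.325 of the control with cisplatin (log2 -1.62 ± 0.11, adjusted p = 1.54e-09) and to 0.591 with vancomycin (-0.76 ± 0.12, adjusted p = 1.03e-05). MTHFD2, which acts on methylene-tetrahydrofolate, rose with cisplatin (0.27 ± 0.06) and fell with vancomycin (-0.49 ± 0.09). SHMT2, which splits serine into glycine and a one-carbon unit, went the other way, with -0.36 ± 0.08 and 0.33 ± 0.10, both called. The cisplatin call of SHMT2 was lost with library size alone (-0.15, adjusted p = 0.143).

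ASNS (chr7:97852118-97872542), the enzyme that makes asparagine and a textbook target of ATF4, had only 5 to 33 counts per sample. Its CPM was 0.508, 1.07 and 0.329 in the controls, 1.45, 1.85 and 1.74 with iohexol, 1.03, 0.677 and 1.95 with cisplatin and 1.06, 0.945 and 1.23 with vancomycin. The iohexol samples lay above the controls, and the cisplatin and vancomycin samples overlapped them. The value with iohexol was 2.64-fold (log2 1.40 ± 0.41, adjusted p = 0.0324), and the call was lost in 4 of the 6 fits without 1 library, with an adjusted p of up to 0.122. With cisplatin ASNS was at 0.92 ± 0.48 (adjusted p = 0.108), and library size alone called it higher there (1.14, adjusted p = 0.0478). Of its exon bases 44.6% are shared on the same strand with AC079781.5, which had 0 to 28 counts, and 71.3% of its 31-base sequences occur in another gene. Reads from that stretch cannot be assigned to either gene by position, so the counts of ASNS are uncertain and its level is not comparable with that of the other enzymes.

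**Figure D4:**
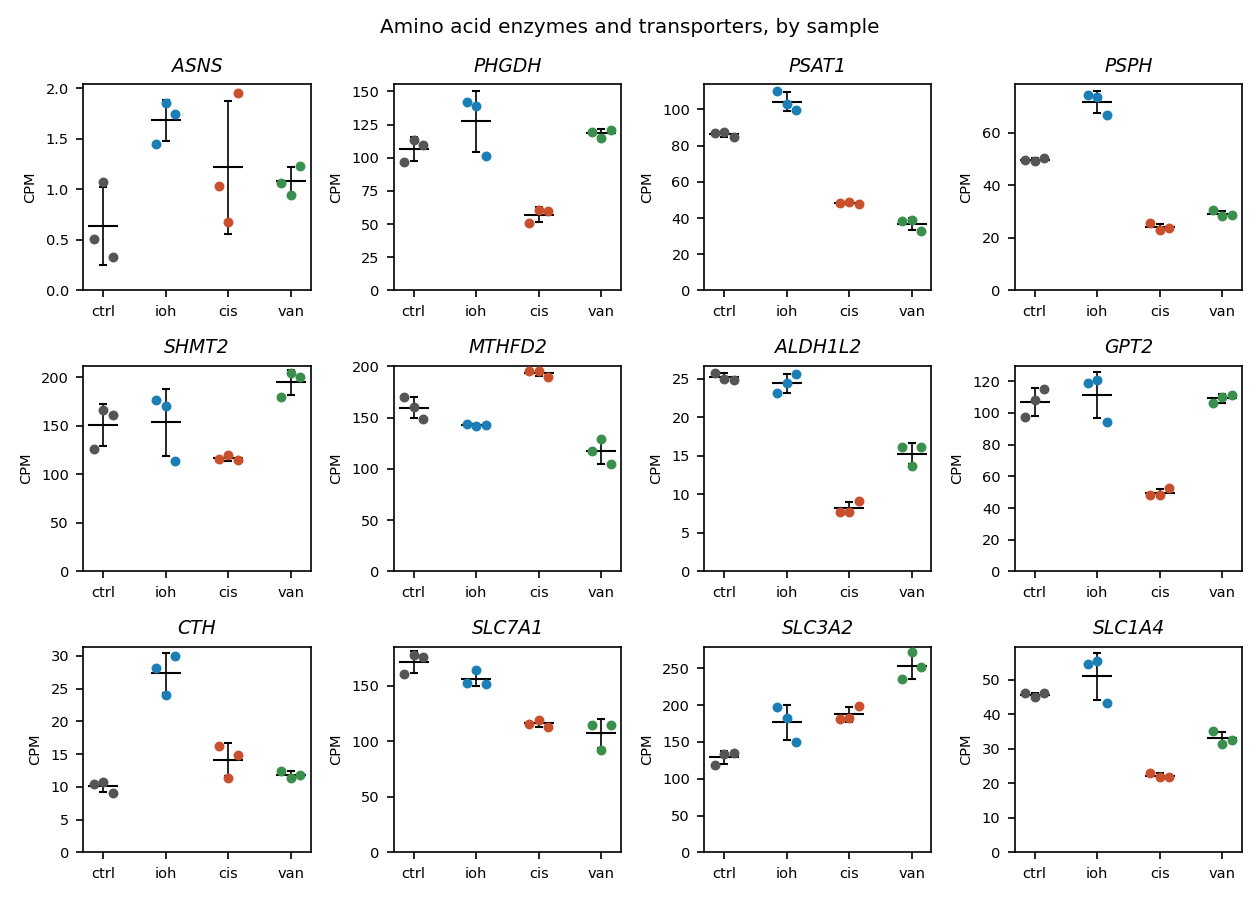
CPM (vertical axis, from 0) of 9 enzymes and 3 transporters in the 3 samples of the control (ctrl), iohexol (ioh), cisplatin (cis) and vancomycin (van) groups, with the mean as a line and the SD as a bar. PSAT1 and PSPH are highest with iohexol and lowest with vancomycin and cisplatin respectively, and CTH is highest with iohexol at 24 to 29.9 CPM.

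The 6 enzymes of proline, alanine, phosphoenolpyruvate and transsulfuration gave 5 lower and 1 higher with cisplatin, 1 higher and 1 lower with iohexol (all genes 30.6% and 29.2% with cisplatin, 11.2% and 9.77% with iohexol). With vancomycin 0 of the 6 were called by edgeR, 1 had an unadjusted p under 0.05, and DESeq2 and limma-voom each called 1. Over all genes 29.0% were higher and 28.8% lower with vancomycin in edgeR. ALDH18A1 was called lower there with library size alone (-0.27, adjusted p = 0.00759) and with replicate number as a block (-0.19, adjusted p = 0.0203). The vancomycin values of the 6 lay between -0.19 and 0.19 (log2). CTH (chr1:70411218-70439851), the enzyme that releases cysteine from cystathionine, had 10.5, 10.7 and 9.14 CPM in the controls, 28.1, 24 and 29.9 with iohexol, 16.2, 11.4 and 14.9 with cisplatin and 12.4, 11.3 and 11.8 with vancomycin. The iohexol samples were the highest, 2.74-fold above control (log2 1.45 ± 0.13, adjusted p = 1.55e-05), the highest fold change of any member with that drug. Its iohexol value held in all 6 fits without 1 library, between 1.37 and 1.53. With cisplatin CTH rose 1.4-fold (0.49 ± 0.14, adjusted p = 0.00635).

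GPT2 (chr16:46884378-46931297), the mitochondrial alanine aminotransferase, had 97.5, 108 and 115 CPM in the controls, 119, 120.5 and 94.4 with iohexol, 47.9, 48.1 and 52.4 with cisplatin and 106, 110.3 and 111 with vancomycin. It fell with cisplatin to 0.462 of the control (log2 -1.11 ± 0.08, adjusted p = 9.72e-10). ALDH18A1 and PYCR1, which make proline from glutamate, also fell with cisplatin (-0.93 ± 0.06 and -0.92 ± 0.10). ALDH18A1 was the 1 member that fell with iohexol (-0.41 ± 0.08, adjusted p = 0.00393). PCK2, the mitochondrial PEP carboxykinase, fell with cisplatin (-0.45 ± 0.10), a call lost with library size alone (-0.23, adjusted p = 0.0586). With iohexol PCK2 was at 0.41 ± 0.16 (adjusted p = 0.0823), and at 0.58 (adjusted p = 0.000431) without iohexol replicate 3.

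CBS (chr21:43053191-43076943), the enzyme before CTH in transsulfuration, varied widely between samples of one group. Its CPM was 8.42, 5.58 and 19.2 in the controls, 9.88, 26.4 and 5.74 with iohexol, 5.33, 4.37 and 5.43 with cisplatin and 7.51, 14.5 and 14.8 with vancomycin. The cisplatin samples were the lowest (log2 -1.13 ± 0.31, adjusted p = 0.00445), and the call was lost without control replicate 3. Of its 31-base sequences 77.8% occur in other genes, mainly the near-identical CBSL. The sum of both was 13.7, 11.5 and 25.1 CPM in the controls and 7.33, 6.83 and 9.39 with cisplatin, so that the spread within the controls was in the sum too.

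Of the 5 amino acid transporters, 2 rose with iohexol, 2 rose and 2 fell with cisplatin, and 1 rose and 3 fell with vancomycin. The shares of all genes were 11.2% higher with iohexol, 29.2% and 30.6% higher and lower with cisplatin, and 29.0% and 28.8% with vancomycin. SLC3A2 (CD98), the heavy chain that carries SLC7A5 and other light chains to the membrane, rose with every drug, 1.39-fold with iohexol (log2 0.47 ± 0.11, adjusted p = 0.0105), 1.45-fold with cisplatin (0.54 ± 0.07) and 1.91-fold with vancomycin (0.93 ± 0.09, adjusted p = 3.6e-09). The iohexol call of SLC3A2 was lost without iohexol replicate 1 (0.38, adjusted p = 0.0518). SLC7A5 (LAT1), its partner for large neutral amino acids, was called with iohexol alone (0.42 ± 0.12, adjusted p = 0.0283), a call that was lost in 4 of the 6 fits without 1 library (adjusted p up to 0.127). With cisplatin and vancomycin it was at 0.05 ± 0.07 and -0.03 ± 0.09. Library size alone also called SLC7A5 higher with cisplatin (0.26, adjusted p = 0.00312).

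SLC1A4 (chr2:64988477-65023865), the carrier of alanine, serine and cysteine, had 46, 44.9 and 46 CPM in the controls, 54.5, 55.3 and 43.2 with iohexol, 23.1, 21.7 and 21.9 with cisplatin and 35, 31.5 and 32.6 with vancomycin. It fell with cisplatin to 0.487 of the control (log2 -1.04 ± 0.08, adjusted p = 1.05e-08) and with vancomycin to 0.703 (-0.51 ± 0.10, adjusted p = 0.000197). With iohexol SLC1A4 was at 0.18 ± 0.12 (adjusted p = 0.303), and at 0.29 (adjusted p = 0.0291) without iohexol replicate 3. Its close relative SLC1A5 (ASCT2), the glutamine carrier, rose with cisplatin (0.45 ± 0.06) and was lower with vancomycin (-0.21 ± 0.09, adjusted p = 0.0428), a call lost in 4 of the 6 fits without 1 library. SLC7A1 (CAT1), the carrier of arginine and lysine, fell with cisplatin (-0.56 ± 0.06) and vancomycin (-0.71 ± 0.10).

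Of the 3 secreted and surface proteins, FGF21 was not detectable at this depth. STC2, a secreted glycoprotein, rose with vancomycin (log2 0.67 ± 0.10, adjusted p = 3.66e-06). With cisplatin STC2 was at 0.02 ± 0.09, and library size alone called it higher there (0.24, adjusted p = 0.0228). With iohexol STC2 was at 0.35 ± 0.14 (adjusted p = 0.103), and at 0.50 (adjusted p = 0.000589) without iohexol replicate 3. VLDLR (chr9:2621834-2660053), a receptor for triglyceride-rich lipoproteins, had 89.6, 75.5 and 70.7 CPM in the controls, 76.8, 74 and 95.9 with iohexol, 34, 29.4 and 29.3 with cisplatin and 81.3, 70.9 and 80.0 with vancomycin. It fell with cisplatin alone, to 0.393 of the control (-1.35 ± 0.10, adjusted p = 2.01e-09).

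Members that changed with one drug and not with another were compared directly, by contrasts between drugs in a fit of all 12 samples. Of the 35 members, 4 were higher and 22 lower with cisplatin than with iohexol, where 26.0% and 27.9% of 17073 genes were called. With vancomycin against iohexol 10 were higher and 13 lower (background 29.0% and 27.6%), and with vancomycin against cisplatin 23 were higher and 6 lower (background 34.7% and 30.0%). The median log2 differences of the members were -0.46, -0.06 and 0.55, and those of all genes 0.00, -0.02 and 0.03. Library size alone moved the medians of all genes by 0.127, -0.207 and -0.335. It then gave 5 higher and 18 lower for cisplatin against iohexol, 5 and 17 for vancomycin against iohexol, and 15 and 10 for vancomycin against cisplatin.

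The largest separation between drugs among the members was that of NUPR1, 29.5 times as high with vancomycin as with cisplatin (log2 4.88 ± 0.31, adjusted p = 4.24e-11) and 5.09 times as high as with iohexol (2.35 ± 0.24, adjusted p = 8.56e-08). CEBPB and PPP1R15A were also higher with vancomycin than with iohexol, by 1.43 ± 0.10 and 2.04 ± 0.14. DDIT3 with vancomycin differed from iohexol by 0.14 ± 0.13 (adjusted p = 0.362), and both were above cisplatin, by 0.74 ± 0.13 for vancomycin, while cisplatin minus iohexol was -0.60 ± 0.13. ATF4 mRNA was higher with vancomycin than with iohexol (0.64 ± 0.10) and cisplatin (0.87 ± 0.10).

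CHAC1 and CTH set iohexol apart from both other drugs. CHAC1 was lower than with iohexol by -0.90 ± 0.16 (log2) with cisplatin and by -0.93 ± 0.16 with vancomycin. The differences of CTH were -0.95 ± 0.13 and -1.21 ± 0.13, each with an adjusted p under the threshold (4.92e-06 and 2.24e-07). The same order held for PSPH (-1.57 ± 0.09 and -1.30 ± 0.09) and PSAT1 (-1.10 ± 0.08 and -1.51 ± 0.09). For ASNS the differences were -0.46 ± 0.40 and -0.63 ± 0.41 and were not called, at 5 to 33 counts per sample.

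The 6 enzymes of proline, alanine, phosphoenolpyruvate and transsulfuration were all lower with cisplatin than with iohexol, from -0.51 ± 0.07 for ALDH18A1 to -1.48 ± 0.45 for CBS, and 5 of the 6 were lower with cisplatin than with vancomycin. The shares of all genes were 27.9% and 34.7%. Library size alone lost the vancomycin minus cisplatin calls of PCK2 (0.15, adjusted p = 0.331) and CBS (0.94, adjusted p = 0.0744). That call of CBS was also lost without cisplatin replicate 2, vancomycin replicate 2 or vancomycin replicate 3. Its cisplatin minus iohexol call was lost without iohexol replicate 2. DDIT4 was 4.03 times as high with vancomycin as with cisplatin (log2 2.01 ± 0.12, adjusted p = 2.23e-11), VLDLR 2.5 times (1.32 ± 0.11), TRIB3 2.35 times (1.23 ± 0.11) and PHGDH 2.07 times (1.05 ± 0.11). ATF5 was the reverse, at 0.427 of its cisplatin level (-1.23 ± 0.10, adjusted p = 1.87e-09). Between vancomycin and cisplatin, PSPH (0.28 ± 0.09) and EIF2AK4 (0.12 ± 0.09) turned negative with library size alone, at -0.06 and -0.21.

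**Figure D5:**
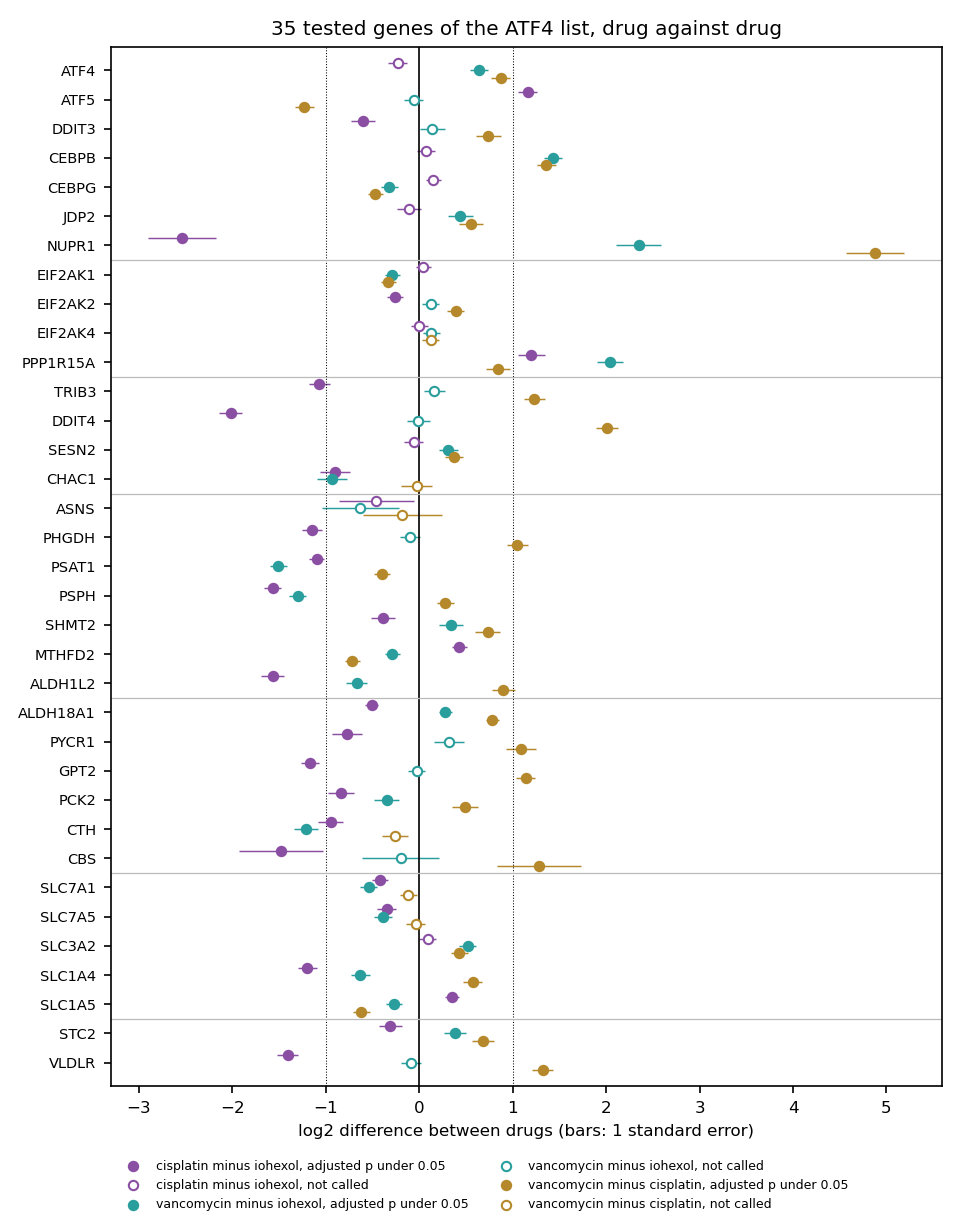
Log2 difference between drugs (horizontal axis, bars are 1 standard error) of the 35 tested genes (vertical axis) for cisplatin minus iohexol, vancomycin minus iohexol and vancomycin minus cisplatin, grouped by role with grey lines between groups and dotted lines at -1 and 1. Filled points were called, 22 of the cisplatin minus iohexol points lie below 0, and NUPR1 reaches 4.88 for vancomycin minus cisplatin.

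Levels of different genes were compared per length, as mean FPKM of the 3 control samples. The length was that of all annotated exon bases of a gene merged, such as 5674 for NUPR1 and 9217 for PHGDH. It is not that of a single transcript, so the order depends on the annotation. ATF4 had the highest level (121 ± 10.2 SD), followed by DDIT4 (98.0 ± 9.55), which did not overlap it in mean and SD, and then by TRIB3 (56.6 ± 4.11), ALDH18A1 (55.8 ± 1.44), CEBPB (54.3 ± 3.16), SLC7A5 (53.8 ± 5.44) and SLC1A5 (48.9 ± 3.15), of which neighbours differed by less than their spread. Of the tested members, those below 5 FPKM were CTH (4.18 ± 0.342), CHAC1 (3.08 ± 0.651), ALDH1L2, JDP2, CBS, NUPR1 (0.229 ± 0.0547) and ASNS (0.142 ± 0.0864). The places of ASNS and CBS are uncertain, because 71.3% and 77.8% of their 31-base sequences occur in other genes. With vancomycin the mean levels of CEBPB and ATF4 were 185 and 186 FPKM. By this measure the DEGs higher with iohexol were among the less abundant members in the controls, apart from DDIT3 at 9.62 ± 0.345 FPKM. The 3 lower cisplatin DEGs that held with library size alone ranged from 2.96 FPKM (ALDH1L2) to 98.0 FPKM (DDIT4).

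Further genes of the pathway were counted from lists that hold no member, with SLC7A11 and SLC38A2 in both the target and the transporter list. The counts are to be read against the shares of all genes called higher and lower, 11.2% and 9.77% with iohexol, 29.2% and 30.6% with cisplatin, and 29.0% and 28.8% with vancomycin. Of 15 genes of stress sensing and eIF2, 1 was higher with iohexol, 4 were higher and 6 lower with cisplatin, and 3 higher and 5 lower with vancomycin. The gene called with iohexol was EIF2AK3, which encodes PERK, the eIF2alpha kinase of the endoplasmic reticulum, and it rose 2.33-fold (log2 1.22 ± 0.09, adjusted p = 3.8e-06). Of 18 further targets of ATF4 or CHOP, 10 were higher and 2 lower with iohexol, 4 and 12 with cisplatin, and 12 and 3 with vancomycin, where all genes gave 11.2% and 9.77%, 29.2% and 30.6%, and 29.0% and 28.8%. GDF15, a secreted stress cytokine, rose with iohexol (2.15 ± 0.11) and vancomycin (1.69 ± 0.09). SLC6A9, the glycine transporter, rose with iohexol (1.54 ± 0.19) and fell with cisplatin (-2.61 ± 0.35), at 4 to 144 counts per sample. SLC7A11, the cystine transporter that supplies glutathione synthesis, fell with cisplatin (-1.54 ± 0.12) and rose with vancomycin (1.22 ± 0.12). ATF3, a stress factor of the same family, rose with cisplatin (1.62 ± 0.08), KLHL24 rose with iohexol (1.02 ± 0.08), and SQSTM1, the autophagy receptor p62, and ATF3 rose with vancomycin (2.12 ± 0.09 and 1.79 ± 0.11). A gene not named for a drug can have changed with it too. Mean CPM of KLHL24 was 59.4 in the controls, 119 with iohexol, 45.1 with cisplatin and 130.2 with vancomycin. For SLC7A11 it was 33.7, 56.7, 11.6 and 80.4 in the same order.

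The 20 cytosolic aminoacyl-tRNA synthetases, which charge tRNA with amino acids and include known ATF4 targets, held no DEG. With iohexol 2 of them were higher and 5 lower, with cisplatin 2 and 13, and with vancomycin 5 and 8, beside 11.2% and 9.77%, 29.2% and 30.6%, and 29.0% and 28.8% of all genes, and all values lay between -0.94 and 0.79 (log2). Of 17 further enzymes, 3 were higher and 1 lower with iohexol, where PRODH, the first enzyme of proline breakdown, rose by 1.96 ± 0.35. PRODH had only 1 to 47 counts per sample. Of the 16 tested with cisplatin 7 were higher and 6 lower, and MTHFD1L (-1.38 ± 0.08) and ASS1 (-1.47 ± 0.09) fell. With vancomycin 3 were higher and 9 lower, and GLDC, the glycine cleavage enzyme, fell to 0.145 of the control (-2.79 ± 0.15), as did GOT2, the mitochondrial aspartate aminotransferase (-1.03 ± 0.09). Of 12 further transporters tested, 7 were higher and 2 lower with iohexol, 4 and 5 with cisplatin, and 4 and 4 with vancomycin, the last near the 29.0% and 28.8% of all genes. Beside SLC7A11, the DEGs among them were SLC43A1, a neutral amino acid carrier, with iohexol (1.23 ± 0.27), the glutamate carrier SLC1A1 (-2.31 ± 0.28) and the taurine carrier SLC6A6 (-1.15 ± 0.08) with cisplatin, and SLC1A1 (-1.20 ± 0.24) and SLC1A3, another glutamate carrier (1.37 ± 0.19), with vancomycin. SLC43A1 was also a DEG with cisplatin (1.04 ± 0.25). SLC1A1, SLC1A3 and SLC43A1 had 11 to 95, 23 to 149 and 18 to 78 counts per sample.

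The 13 endoplasmic reticulum targets of ATF6 and XBP1, which belong to the other arms of the unfolded protein response, were set beside them. With vancomycin 10 were higher and 0 lower in edgeR, DESeq2 and limma-voom calls alike, 0 lower also at an unadjusted p under 0.05, and MANF, a secreted chaperone-like protein, rose 2.93-fold (log2 1.55 ± 0.11, adjusted p = 1.5e-11). With iohexol 1 was higher and 4 lower, and with cisplatin 3 were higher and 8 lower. Over all genes 29.0% were higher and 28.8% lower with vancomycin, 11.2% and 9.77% with iohexol, and 29.2% and 30.6% with cisplatin.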

How the data were processed

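Poly(A) RNA-seq libraries of 12 HK-2 samples were analysed. The authors deposited counts of reads per gene, whole numbers without normalization, for 58735 genes. The submitters' processing notes name CASAVA 1.8, fastp, HISAT2 2.0.5, featureCounts 1.5.0-p3 and DESeq2 1.20.0, with no role given. The strand setting and annotation release are not given in the sources used here. Positions are on GRCh38, and overlaps and shared 31-base sequences come from GENCODE.

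Groups came from the sample labels. Drug and control samples were fitted drug by drug with edgeR 4.0.16 in R 4.3.3 (TMM, filterByExpr with minimum count 10 and total 15, quasi-likelihood test), and drugs were set against each other in a fit of all 12 samples. The Benjamini-Hochberg adjustment ran over all genes tested. Genes with an adjusted p under 0.05 were called. The steps were tested on simulated data. Alternatives were limma-voom (limma 3.58.1), DESeq2 1.42.0, RLE factors, library size, other filters, other samples in the fit, a replicate block and leaving out each sample. Total counts were 14057282 to 18177109, and the values of genes with few counts, such as ASNS, are imprecise.

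The members and lists were chosen with earlier results of these data known. Every member is named, with each sample's value for ATF4 and for members that were DEGs, and at most 3 DEGs of each further list and drug, by smallest p, of which 1 is not reported here. RefSeq promoters were read for 29 of 36 members.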

Additional observations from a re-analysis of the deposited data

Results flagged for a closer look

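Members that 2 drugs changed in opposite directions were noted, with the difference between these drugs in the fit of all 12 samples. The members were picked for opposite calls in the same samples, so a difference between the drugs follows from the choice, and the 12 values are a description with no test. Between cisplatin and iohexol (cisplatin minus iohexol, log2) they were PSAT1 (-1.10 ± 0.08 SE), PSPH (-1.57 ± 0.09) and NUPR1 (-2.54 ± 0.36). Between vancomycin and iohexol they were PSAT1 (-1.51 ± 0.09) and PSPH (-1.30 ± 0.09). Between vancomycin and cisplatin they were ATF4 (0.87 ± 0.10), TRIB3 (1.23 ± 0.11), SHMT2 (0.73 ± 0.13), MTHFD2 (-0.72 ± 0.08), SLC1A5 (-0.62 ± 0.09), CEBPG (-0.47 ± 0.08) and NUPR1 (4.88 ± 0.31). The rise of PSPH with iohexol was called in all 6 fits without 1 library, whereas those of PSAT1 and NUPR1 were called in 1 and 2 of them. Groups of 3 samples were too small to test for single outlying samples.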

How the results depend on the processing

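Over the 35 tested members, 6 comparisons and all alternatives, the values of single members kept their direction and side of the threshold 2782 times, lost their call 98 times, gained one 47 times and reversed 3 times. The reversals came with library size alone: EIF2AK1 with cisplatin against control (0.22, log2), and PSPH (-0.06) and EIF2AK4 (-0.21) for vancomycin minus cisplatin. Library size alone also gave 3 lower DEGs with cisplatin, 5 members higher for vancomycin minus iohexol, and 15 higher and 10 lower for vancomycin minus cisplatin. It leaves out the TMM factors, which were lowest with vancomycin and highest with cisplatin. A fit of all 4 groups gave 2 members lower with iohexol. Without 1 sample, the members higher with iohexol numbered 4 to 16, those lower 1 to 3, and the higher DEGs 3 to 5. In the other comparisons with control, leaving out 1 sample kept the counts of calls within 1.5 times. RLE factors, limma-voom, DESeq2 and both other filters did so for all 6 comparisons. Same-numbered deviations correlated by -0.0209 on average (18 pairs, -0.184 to 0.103) and others by 0.0106, which gave no sign that the replicate numbers pair the samples. The deviations were taken from group means, so these averages depend on each other and cannot exclude pairing. The replicate block gave 7 members higher with iohexol, 10 higher and 20 lower with cisplatin and 10 higher and 11 lower with vancomycin. Counts were low for ASNS, NUPR1 and FGF21, at most 33, 317 and 1, and those of ASNS are also uncertain through its shared sequence.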
